A study of Mus musculus with 17 samples.

Results

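The genes described here are 10 genes by which interneurons, the local inhibitory neurons of the forebrain, are recognised: Pvalb, Lhx6, Dlx1, Dlx2, Dlx5, Dlx6, Reln, Nos1, Calb2 and Erbb4. They were picked by symbol, and each matched a single Ensembl identifier among the 55471 genes of the deposited count table. RNA-seq counts were available for 17 mouse hippocampi in 6 groups, with 2 Control PTZ45 libraries and 3 libraries in each of the other groups. CBP-ifKO mice carry floxed Crebbp, the gene of the lysine acetyltransferase CBP, and Camk2a_creERT2, a Cre recombinase that tamoxifen switches on in excitatory neurons of the forebrain, where a truncated CBP is left. Control mice are littermates that lacked creERT2 per the methods, although the sample labels name Camk2a_creERT2 for them too, and both genotypes were given tamoxifen. All mice were male, on a C57BL/6 background and aged 3 to 6 months, and each library came from 1 animal. Sal mice had saline without kindling. PTZ0 and PTZ45 mice went through a kindling protocol, a series of injections of the convulsant pentylenetetrazol (PTZ), and a week later received saline (PTZ0) or 45 mg/kg PTZ (PTZ45), with the tissue taken 45 min after that injection. These names give the protocol, not the seizures that a mouse of either genotype developed under it. The Camk2a driver is not active in interneurons, which keep CBP in this line. The libraries are of bulk hippocampus, so the comparison of genotypes cannot tell changes in interneurons from changes in other cells that make these transcripts.

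Hippocampal interneurons arise in the ganglionic eminences of the embryonic ventral forebrain, where Dlx1, Dlx2, Dlx5 and Dlx6, homeodomain transcription factors encoded as neighbouring pairs, switch on the GABAergic programme. Lhx6, a LIM homeodomain factor, then directs cells of the medial eminence towards the parvalbumin and somatostatin classes, whereas cells of the caudal eminence form other classes, among them calretinin cells. In the adult, classes are told apart by what they make: Pvalb (parvalbumin) and Calb2 (calretinin) are calcium-binding proteins, Nos1 is the neuronal nitric oxide synthase, Reln is a secreted glycoprotein that guides migration and acts at synapses, and Erbb4 is the neuregulin receptor. Several of these genes are not private to interneurons. Calretinin is also made by hilar mossy cells and immature granule cells of the mouse dentate gyrus, and both calretinin and reelin are made by Cajal-Retzius cells.

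CBP is a coactivator of CREB, which binds the cAMP response element TGACGTCA or its core TGACG, so the bases upstream of the members' start sites were searched for both, on either strand. RefSeq promoter windows of 250 bases before the start site (GRCm38.p6) were at hand for 7 of the 10 members, with none matched for Dlx5, Dlx6 and Calb2. The full element was in no window. The core was in 2 of 10 windows, those of Nos1 and Dlx2, against 17.8% of 32851 windows of all genes, and the full element was in 1.55% of them. The Nos1, Reln, Dlx2 and Pvalb windows are printed because they pair a gene that was lower in CBP-ifKO with and without the core (Nos1 and Reln) with a gene that was not called with and without it (Dlx2 and Pvalb). Each is written 5′ to 3′ on the strand of its gene, with the core in capitals, as CGTCA where it lies on the opposite strand. The windows are chr5:117866589-117866838 (plus strand, inside the annotated Nos1 gene but in no exon), chr5:22344706-22344955 (minus strand), chr2:71546755-71547004 (minus strand) and chr15:78206401-78206650 (minus strand), the last 3 lying upstream of the annotated gene.
Nos1: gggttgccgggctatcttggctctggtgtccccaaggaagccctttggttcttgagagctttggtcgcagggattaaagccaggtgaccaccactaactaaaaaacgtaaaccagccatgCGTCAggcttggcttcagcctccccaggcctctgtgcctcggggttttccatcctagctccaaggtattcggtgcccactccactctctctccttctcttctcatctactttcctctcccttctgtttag
Reln: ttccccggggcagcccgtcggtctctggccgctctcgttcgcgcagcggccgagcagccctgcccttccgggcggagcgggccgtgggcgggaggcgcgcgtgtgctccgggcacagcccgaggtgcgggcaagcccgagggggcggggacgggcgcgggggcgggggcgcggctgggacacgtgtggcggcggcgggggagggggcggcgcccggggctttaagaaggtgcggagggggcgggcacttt
Dlx2: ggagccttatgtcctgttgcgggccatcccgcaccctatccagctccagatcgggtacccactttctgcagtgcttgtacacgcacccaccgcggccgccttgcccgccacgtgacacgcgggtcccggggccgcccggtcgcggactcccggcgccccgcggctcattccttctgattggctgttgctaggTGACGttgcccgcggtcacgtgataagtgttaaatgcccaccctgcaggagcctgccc
Pvalb: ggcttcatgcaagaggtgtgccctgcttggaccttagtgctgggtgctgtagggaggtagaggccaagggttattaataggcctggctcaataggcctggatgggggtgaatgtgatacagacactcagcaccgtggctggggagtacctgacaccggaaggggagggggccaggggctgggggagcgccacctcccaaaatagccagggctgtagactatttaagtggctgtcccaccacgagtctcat
The core began 130 bases before the start site in Nos1 and 58 bases before it in Dlx2. A match is a description of these letters, not evidence of binding.

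Libraries held 5831992 to 18735643 counts. Crebbp, the targeted gene, lay at 1824, 2171 and 2429 normalized counts (lowest, median and highest) in Control and at 1061, 1226 and 1337 in CBP-ifKO, with no overlap. Sequencing lanes, which the library names give, followed the groups: lane 3 held Control Sal and Control PTZ0, lane 4 held Control PTZ45 and CBP-ifKO Sal, and lane 5 held CBP-ifKO PTZ0 and CBP-ifKO PTZ45. Genotype and lane therefore cannot be told apart within a treatment. Tissue purity also varied: the summed level of 8 choroid plexus genes was 463.6 to 1209 normalized counts in 12 libraries but 11079 to 45287 in the other 5 (Control Sal replicate 2, Control PTZ0 replicate 2, CBP-ifKO Sal replicate 1, CBP-ifKO PTZ0 replicate 3 and CBP-ifKO PTZ45 replicate 2). Genotype differences of the members over all treatments are given with and without these libraries.

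All 10 members were detected in every library, at levels that spanned a wide range. Per kilobase of exon, Pvalb had the highest mean at 227 normalized counts, followed by Erbb4 at 195, Calb2 at 141, Nos1 at 85.5, Reln at 84.3, Dlx1 at 46.3, Lhx6 at 28.02, Dlx6 at 14.3, Dlx5 at 6.52 and Dlx2 at 3.92 (n = 17 libraries). Pvalb exceeded Erbb4 in 15 of 17 libraries and Dlx5 exceeded Dlx2 in 16, but Nos1 exceeded Reln in only 8, so those neighbours in the order are not separated. The ranges of neighbours did not overlap for Reln and Dlx1, for Dlx1 and Lhx6, or for Lhx6 and Dlx6. For scale, Gad1 and Gad2, which encode the GABA-synthesizing enzymes shared by all interneurons, lay at 407 and 289 per kilobase and the neuropeptide gene Sst at 1199.

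**Figure D1:**
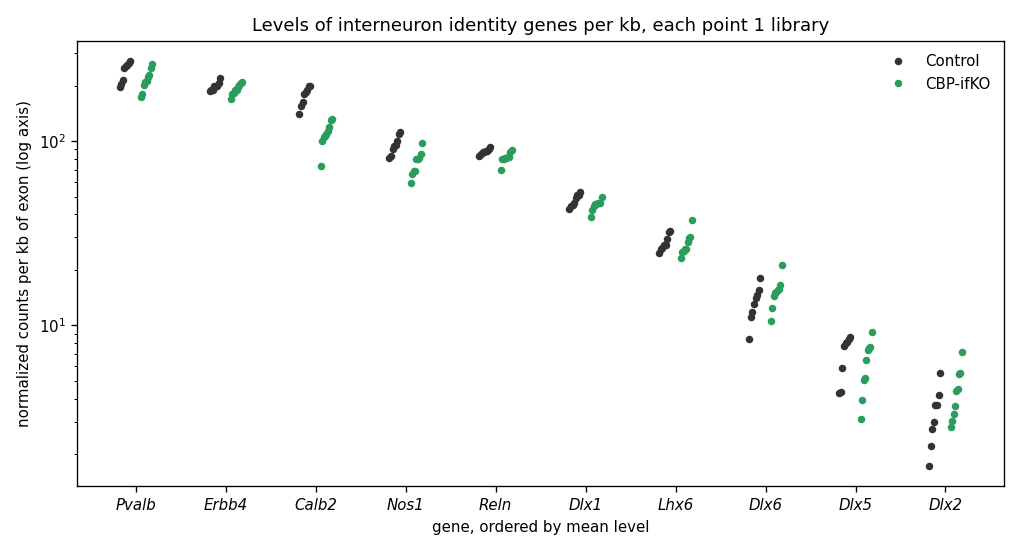
Level of each member per kilobase of exon, in normalized counts on a log axis, with members ordered by their mean over 17 libraries. Each point is 1 library, coloured by genotype. Pvalb and Erbb4 stand at the top and Dlx2 at the bottom with a mean of 3.92, and Nos1 and Reln have like means, with the Nos1 points spread more widely.

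The Dlx pairs were uneven. Dlx1 and Dlx2 lie next to each other on chromosome 2 in opposite orientation, yet Dlx1 exceeded Dlx2 per kilobase by a median of 12.2 times (6.17 to 26.2 over the libraries). On chromosome 6, Dlx6 exceeded Dlx5 by a median of 2.02 times (1.08 to 4.90). Dlx6os1, a long noncoding RNA on the opposite strand that spans Dlx6, exceeded Dlx6 itself by a median of 7.13 times per kilobase (5.26 to 11.6). The symbol Dlx6os1 matched more than 1 Ensembl identifier, and all its values here are of the first, ENSMUSG00000090063. Raw counts were 4 to 32 per library for Dlx2, 7 to 27 for Dlx5 and 17 to 48 for Dlx6, and the coefficient of variation over all libraries was 35.8%, 28.8% and 21.1%. These genes can thus show only large differences. Erbb4, Reln and Dlx1 were the steadiest members, with coefficients of 6.25%, 6.54% and 7.64%.

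Across all 3 treatments, 3 of the 10 members, Calb2, Nos1 and Reln, were lower in CBP-ifKO than in Control and none was higher (DESeq2, adjusted p under 0.05, genotype tested beside treatment). The same fit called 19.3% of the 18682 genes tested, 11.5% as lower and 7.76% as higher. The share of 3 in 10 is above that of lower genes, but with only 10 genes it says little about the members as a group. With edgeR, 2 members were called, Calb2 and Nos1. The median log2 difference was -0.11 over the members, 8 of which lay below 0, against 0.01 over all genes tested. In bulk tissue, fewer cells of a type and less RNA per cell cannot be told apart.

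**Figure D2:**
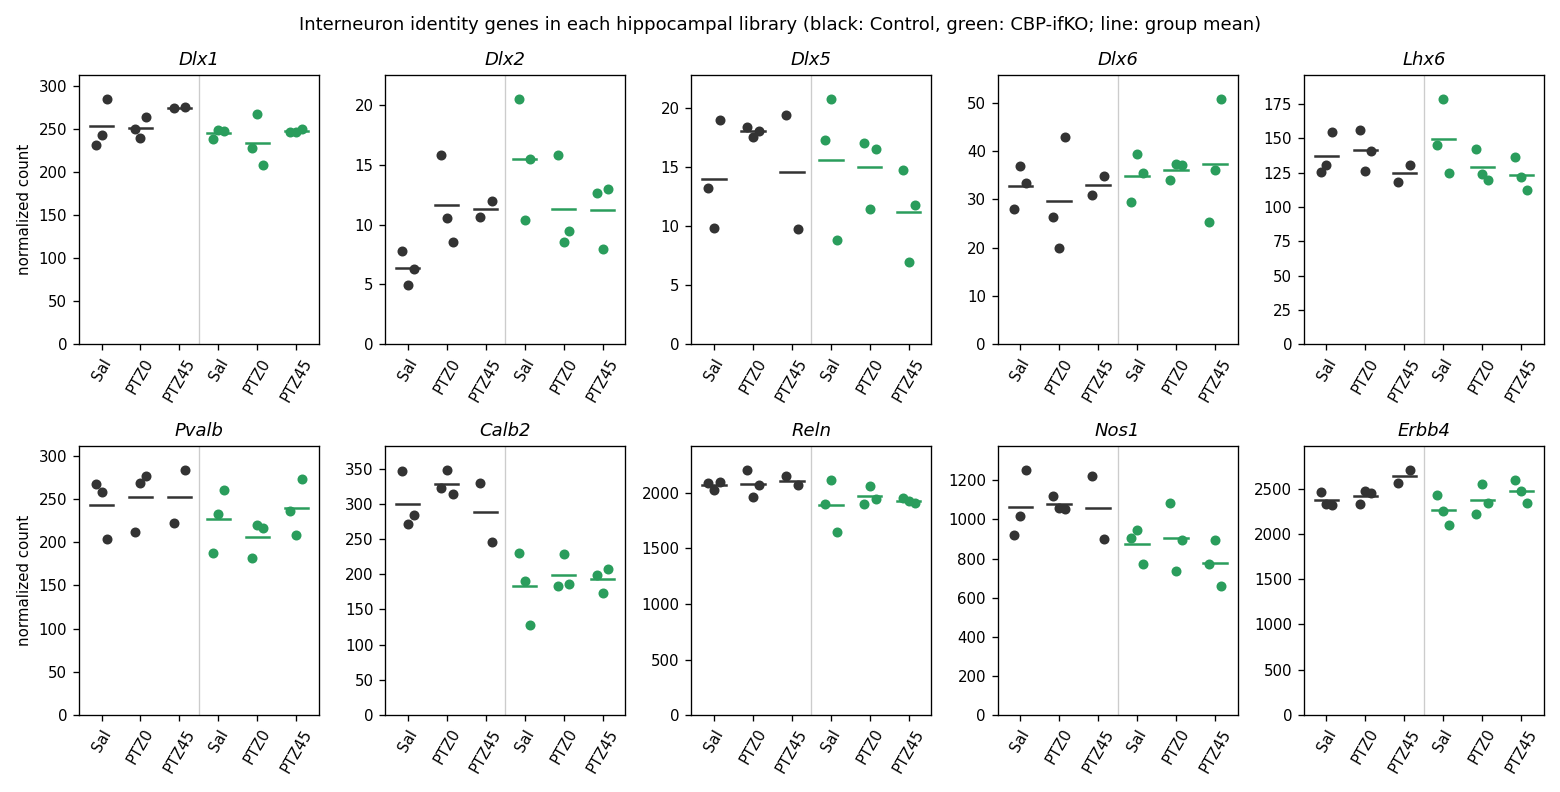
Normalized counts of the 10 members in each library, by group. Black points are Control, green points are CBP-ifKO, lines are group means, and every axis starts at 0. The Calb2 points of the 2 genotypes form separate bands, at 246 to 348 in Control and 128 to 230.0 in CBP-ifKO, whereas the points of the other members overlap between genotypes.

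Calb2, on chr8:110137502-110168210 (minus strand), showed the clearest difference. In Control its normalized count was 346, 271 and 284 in Sal, 322, 348 and 313 in PTZ0, and 330 and 246 in PTZ45. In CBP-ifKO it was 230.0, 191 and 128 in Sal, 184, 228 and 186 in PTZ0, and 199, 174 and 208 in PTZ45. All 9 CBP-ifKO libraries lay below all 8 Control libraries, a separation in that direction seen for 2.16% of the genes tested. The genotype means were 307 ± 37.0 (SD, n = 8) and 192 ± 30.8 (SD, n = 9), and the fitted level in CBP-ifKO was 62.5% of that in Control, a log2 difference of -0.68 (SE 0.10, adjusted p = 5.73e-10). The call held in 23 of 25 alternatives, among them every one that left out a library. The 2 that lost it were those that deal with the sequencing lane. With lane as a term the log2 difference was -0.58 (adjusted p = 0.813), and within lane 4, where CBP-ifKO Sal is set against Control PTZ45 so that treatment differs too, it was -0.66 (adjusted p = 0.106). In the 12 libraries low in choroid plexus genes it was -0.71 (adjusted p = 1.30e-07).

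Nos1, on chr5:117781032-117958840 (plus strand), was lower by a smaller margin. Control libraries held 922, 1016 and 1252 normalized counts in Sal, 1120.1, 1056 and 1054 in PTZ0, and 1221 and 899.6 in PTZ45. CBP-ifKO libraries held 905, 948 and 772 in Sal, 1084, 735 and 897 in PTZ0, and 772, 896 and 660.3 in PTZ45. The genotypes overlapped, since CBP-ifKO Sal replicates 1 and 2 and CBP-ifKO PTZ0 replicate 1 reached into the Control range, but 6 of 9 CBP-ifKO libraries lay below the lowest Control library. The means were 1068 ± 127 (SD, n = 8) and 852 ± 129 (SD, n = 9), and the log2 difference was -0.32 (SE 0.08, adjusted p = 0.00186), or 80.0% of Control. The call was again lost only with lane as a term (-0.48, adjusted p = 0.788) and in lane 4 alone (-0.29, adjusted p = 0.379), and it held in the libraries low in choroid plexus genes (-0.39, adjusted p = 0.0443).

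Reln, on chr5:21884454-22344702 (minus strand), showed the smallest of the 3 differences. Control libraries ranged from 1962 through a median of 2080 to 2206 normalized counts, and CBP-ifKO libraries from 1646 through 1927 to 2114. The ranges overlapped, but 7 of 9 CBP-ifKO libraries lay below the lowest Control library, and the lowest value, CBP-ifKO Sal replicate 3, stood apart from the next CBP-ifKO library at 1898. The log2 difference was -0.12 (SE 0.04, adjusted p = 0.0342), or 92.2% of Control. This call was lost in 13 of 25 alternatives, including edgeR (adjusted p = 0.0515), the libraries low in choroid plexus genes (-0.14, adjusted p = 0.105) and 8 of the fits without a library (Control Sal replicate 1 or 3, CBP-ifKO Sal replicate 3, Control PTZ0 replicate 1, CBP-ifKO PTZ0 replicate 1 or 3, Control PTZ45 replicate 1 or CBP-ifKO PTZ45 replicate 2), in which the adjusted p was 0.0547 to 0.0858. It was also lost with lane as a term (-0.19, SE 0.14, adjusted p = 0.9997) and in lane 4 alone (-0.17, SE 0.11, adjusted p = 0.601). The SE of both was above the 0.04 of the main fit.

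Pvalb, on chr15:78191114-78206400 (minus strand), marks the fast-spiking basket and axo-axonic cells. Its Control libraries lay at 203, 263 and 284 normalized counts (lowest, median and highest) and its CBP-ifKO libraries at 181, 221 and 274. The groups overlapped broadly. The log2 difference was -0.16 with a 95% interval of -0.34 to 0.02 (adjusted p = 0.235). That leaves room for a decrease of the size seen for Nos1 (-0.32) or Reln, or for none. In the 12 libraries low in choroid plexus genes it was -0.06, and with lane as a term its sign turned (0.10), with no call in either.

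The transcription factors of the lineage were not called. Lhx6, on chr2:36081953-36105408 (minus strand), ranged from 119 to 156 normalized counts in Control and from 112 to 178 in CBP-ifKO, with a log2 difference of -0.02 (interval -0.20 to 0.15, adjusted p = 0.891). Its sign turned with lane as a term (0.23), in lane 4 alone (0.24) and with a correction for GC content (0.02), as well as in 3 fits without a library, and it was called in none of these. Dlx1, on chr2:71528113-71533981 (plus strand), ranged from 231 to 285 in Control and from 208 to 267 in CBP-ifKO, with a log2 difference of -0.10 (interval -0.23 to 0.03, adjusted p = 0.311). In the 12 libraries low in choroid plexus genes the log2 difference was -0.03 for Lhx6 and -0.08 for Dlx1. For both of these genes the interval excludes a decrease as large as that of Calb2.

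The 3 scarce Dlx genes had intervals too wide to place them. Dlx2 (chr2:71543408-71546754, minus strand) averaged 9.56 ± 3.44 normalized counts in Control (SD, n = 8) and 12.7 ± 4.08 in CBP-ifKO (SD, n = 9), and its log2 difference was 0.43 (interval -0.15 to 1.01). Dlx5 (chr6:6877805-6882085, minus strand) averaged 15.7 ± 4.09 and 13.9 ± 4.46, with a log2 difference of -0.19 (interval -0.68 to 0.29). Dlx6 (chr6:6863334-6868568, plus strand) averaged 31.7 ± 7.03 and 36.1 ± 7.01, with a log2 difference of 0.17 (interval -0.16 to 0.50). In the 12 libraries low in choroid plexus genes the differences were 0.35, -0.28 and 0.17. With lane as a term Dlx2 stood at 1.39, with no adjusted p. The sign of Dlx6 turned with lane as a term (-0.03) and that of Dlx5 in lane 4 alone (0.04), without a call. Adjusted p values were 0.345 for Dlx2, 0.648 for Dlx5 and 0.547 for Dlx6. Their noncoding neighbours, which are more abundant, were close to level, at -0.02 for Dlx6os1 (interval -0.12 to 0.09, adjusted p = 0.870) and -0.09 for Dlx1as (interval -0.34 to 0.16, adjusted p = 0.673).

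Erbb4, on chr1:68032186-69108059 (minus strand), ranged from 2322 to 2703 normalized counts in Control and from 2096 to 2594 in CBP-ifKO. The ranges overlapped for most libraries of both genotypes. The log2 difference was -0.06 (interval -0.14 to 0.01, adjusted p = 0.295). Of 25 alternatives, only the correction for GC content called it (-0.08, adjusted p = 0.0174). In the 12 libraries low in choroid plexus genes it stood at -0.08 (adjusted p = 0.369). It was further from 0 with lane as a term (-0.13) and in lane 4 alone (-0.22), where it was not called.

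**Figure D3:**
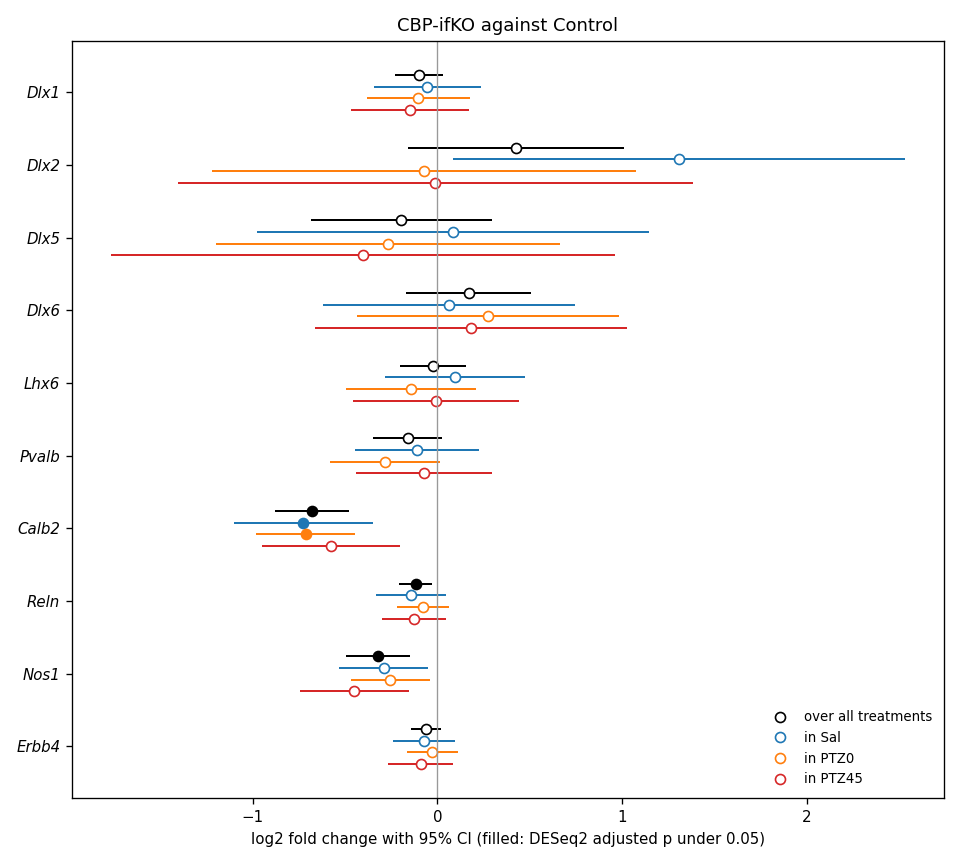
Log2 difference of each member between CBP-ifKO and Control over all treatments and within Sal, PTZ0 and PTZ45, with 95% intervals from DESeq2. Filled points passed an adjusted p of 0.05. Calb2 is filled over all treatments (-0.68), in Sal and in PTZ0, and the scarce Dlx genes have the widest intervals.

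Within each treatment, tested on 5 or 6 libraries, Calb2 kept a similar difference. In Sal it was -0.72 (SE 0.19, adjusted p = 0.0109) and the only one of 8 members with an adjusted p to be called, where 2.04% of all genes tested were. This call was fragile: it was lost with edgeR (adjusted p = 0.150) and without Control Sal replicate 1 (0.231), replicate 2 (0.0553) or replicate 3 (0.0816) or CBP-ifKO Sal replicate 3 (0.0775). The log2 difference in the fits that lost it ran from -0.50 to -0.79. In PTZ0 the difference was -0.71 (SE 0.13, adjusted p = 1.25e-05), again the only member called, of 7, against 6.68% of all genes. It held in all 12 alternatives, with a highest adjusted p of 0.00401. In PTZ45 it was -0.58 (interval -0.94 to -0.21, adjusted p = 0.0613), and no member was called by DESeq2 or edgeR, against 3.07% of all genes by DESeq2, with 2 members, Calb2 and Nos1, at an unadjusted p under 0.05 in both tools.

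Nos1 was below Control in each treatment without passing the threshold, by -0.29 in Sal (interval -0.53 to -0.05, adjusted p = 0.280), -0.25 in PTZ0 (interval -0.46 to -0.05, adjusted p = 0.151) and -0.45 in PTZ45 (interval -0.74 to -0.16, adjusted p = 0.0651). In Sal no alternative called it, but in PTZ0 and PTZ45 single libraries decided the call. Without CBP-ifKO PTZ0 replicate 1, the high library of its group, the PTZ0 difference was -0.40 (adjusted p = 0.00192), and without Control PTZ45 replicate 2 or CBP-ifKO PTZ45 replicate 2 the PTZ45 difference was -0.65 (adjusted p = 0.0177) or -0.56 (adjusted p = 0.0412). The former fit has 1 Control library, which is assumed to vary like the CBP-ifKO libraries. Reln stood at -0.14, -0.08 and -0.13 in Sal, PTZ0 and PTZ45, Pvalb at -0.11, -0.28 and -0.07, Dlx1 at -0.05, -0.10 and -0.15, and Erbb4 at -0.07, -0.03 and -0.09, none of them called. Lhx6 stood at 0.10 in Sal, -0.14 in PTZ0 and -0.005 in PTZ45, again not called. In the same order Dlx5, with no adjusted p, stood at 0.09, -0.27 and -0.40, and Dlx6 at 0.06, 0.28 and 0.18 without a call.

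Dlx2 was higher in CBP-ifKO Sal than in Control Sal in every library, at very low counts. Control Sal held 7.79, 4.92 and 6.33 normalized counts and CBP-ifKO Sal held 20.5, 10.4 and 15.5. The groups did not overlap, and the log2 difference was 1.31 (interval 0.09 to 2.53, unadjusted p = 0.0349). DESeq2 gave no adjusted p at this low level, and the alternatives that did gave 0.139 to 0.470. In PTZ0 and PTZ45 the Dlx2 difference was -0.07 and -0.01. Control Sal, at 4 to 10 raw counts, also lay below all libraries of Control PTZ0 (8.57 to 15.8 normalized counts) and Control PTZ45 (10.6 and 11.95). CBP-ifKO Sal overlapped both of these groups, so the Sal difference rests on the low Control Sal libraries. The share of all genes that separate in this way in Sal is not given here.

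Markers of the other cells that make calretinin or reelin were set beside these results, in the fit over all treatments that called 11.5% of all genes lower. Of the mossy cell markers, Ajap1 was lower in CBP-ifKO, at -0.49 with no overlap (393 against 280 normalized counts), Calcrl stood at -0.17 (adjusted p = 0.200), and Drd2 and Csf2rb2 were low, with means of 13.2 and 15.2, and stood in the other direction at 0.12 (adjusted p = 0.818) and 0.38 (adjusted p = 0.350). Their summed level was 582 to 679 in Control and 471 to 544 in CBP-ifKO, so 1 of 4 markers was called lower, 2 of 4 lay below 0, and the sums, mostly of Ajap1 and Calcrl, did not overlap. Of the immature granule cell markers, 1 of 4 with an adjusted p was called lower, Sox11, a transcription factor of newborn neurons, at -0.53 with no overlap (425 against 297). With lane as a term both calls were lost (Sox11 at -0.77, adjusted p = 0.0714, and Ajap1 at -0.48, adjusted p = 0.485), and in lane 4 alone Sox11 kept its call (-0.79, adjusted p = 3.21e-05) and Ajap1 did not (-0.34, adjusted p = 0.293). Over the whole list 5 of 6 lay below 0, with a median of -0.31, and 3 had an unadjusted p under 0.05. Dcx stood at -0.16 (adjusted p = 0.121), Igfbpl1, Eomes and Neurod4 were low, with means of 9.46, 2.99 and 3.87, and the summed level was 962 to 1241 in Control and 862 to 1030 in CBP-ifKO.

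Of the Cajal-Retzius markers, none of 4 with an adjusted p was called by DESeq2 or edgeR, and 1 had an unadjusted p under 0.05 in each tool, in DESeq2 Trp73 at -0.41 (adjusted p = 0.146). Lhx1 and Lhx5, which define these cells, were near 0 with means of 1.35 and 1.03, and Ebf3 was low with 15.5. Their summed level, largely of Ndnf, was 686 to 839 in Control and 648 to 755 in CBP-ifKO. The part of mossy cells, newborn granule cells or Cajal-Retzius cells in the lower Calb2 and Reln levels was not tested.

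Markers of the excitatory cells themselves also differed (log2 differences over all treatments, in the fit that called 11.5% of all genes lower and 7.76% higher). CA1 pyramidal markers fell in 5 of 6 cases (Wfs1 at -1.11, Mpped1 at -0.49, Fibcd1 at -0.44, Man1a at -0.34 and Pou3f1 at -0.29), with a summed level of 5563 to 6293 in Control and 3938 to 4932 in CBP-ifKO. CA3 markers fell in 2 of 6 (Cpne4 at -0.44 and Grik4 at -0.18), and dentate granule markers fell in 3 of 7 (C1ql2 at -1.66, Pdzd2 at -0.41 and Stxbp6 at -0.18), while Prox1 rose by 0.26. Of 7 general excitatory markers, Neurod2 rose by 0.29 and Nrgn fell by 0.37. Of the tissue beside the hippocampus, striatal and septal markers fell in 2 of 5 (Rxrg at -0.77 and Drd1 at -0.74) and rose in 1 (Rgs9 by 0.32), with a summed level of 498 to 577 against 423 to 651 and with Adora2a low and Six3 and Isl1 near 0. Of thalamic and habenular markers 1 of 6 fell (Plekhg1 at -0.20), with Gbx2 near 0 and Tac2 at a mean of 14.9, and the summed level was 1809 to 2103 against 1837 to 2093. Among glial and vascular lists, all 4 oligodendrocyte precursor markers fell (Cspg4 at -0.31, Pdgfra at -0.30, Olig1 at -0.28 and Gpr17 at -0.25), as did 3 of 6 astrocyte markers (Gjb6 at -0.19, Slc1a3 at -0.18 and Gja1 at -0.11, the last not called with edgeR) and 1 of 6 vascular markers (Rgs5 at -0.18). In lane 4 alone the signs of Pou3f1 (0.15) and Olig1 (0.12) turned, with neither called. None of 6 oligodendrocyte or 6 microglia markers was called by DESeq2 or edgeR (4 and 0 at an unadjusted p under 0.05 in DESeq2, 3 and 0 in edgeR). What part any of these cells has in the members' values was not tested.

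No difference of a member between treatments was detectable in these libraries. In none of the 6 comparisons between treatments was a member called by DESeq2 or edgeR, and none had an unadjusted p under 0.05 with either tool. For PTZ45 against Sal, DESeq2 called 1.17% of all genes in Control and 0.294% in CBP-ifKO. For PTZ0 against Sal it called 0.00843% and 0.0112%, and for PTZ45 against PTZ0 it called 1.25% and 0.0872%. At such rates the background too gives no call among 10 genes.

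The intervals say what was not detectable. In Control, where PTZ0 and Sal shared a lane, the 7 more abundant members lay between -0.01 and 0.12 in PTZ0 against Sal, and all their intervals fell within -0.28 to 0.39. In CBP-ifKO the same comparison had intervals from -0.57 (Lhx6) to 0.53 (Calb2). The comparison within lane 5, PTZ45 against PTZ0 in CBP-ifKO, gave 0.21 for Pvalb (interval -0.10 to 0.51), -0.22 for Nos1 (interval -0.48 to 0.04) and -0.05 for Calb2 (interval -0.36 to 0.27). Decreases in Pvalb of more than 0.10 and in Calb2 of more than 0.36 on the log2 scale in the acute response of the knockouts thus lie outside these intervals.

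For PTZ45 against Sal in Control, Erbb4 came closest to a difference. It lay at 2565 and 2703 normalized counts in the PTZ45 libraries, against 2458, 2334 and 2322 in Sal and 2331, 2468 and 2450 in PTZ0. Both PTZ45 libraries thus stood above all 6 others of that genotype, but the log2 difference of 0.15 did not pass the test (interval -0.01 to 0.31, adjusted p = 0.743). These libraries are also the only Control libraries in lane 4, so treatment and lane cannot be told apart here. In CBP-ifKO Erbb4 stood at 0.12 (interval -0.05 to 0.30). The remaining abundant members were at 0.05 (Pvalb), -0.14 (Lhx6), 0.12 (Dlx1), 0.02 (Reln), -0.01 (Nos1) and -0.06 (Calb2) in Control, and at 0.08, -0.25, 0.02, 0.04, -0.17 and 0.08 in CBP-ifKO, in the same order.

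**Figure D4:**
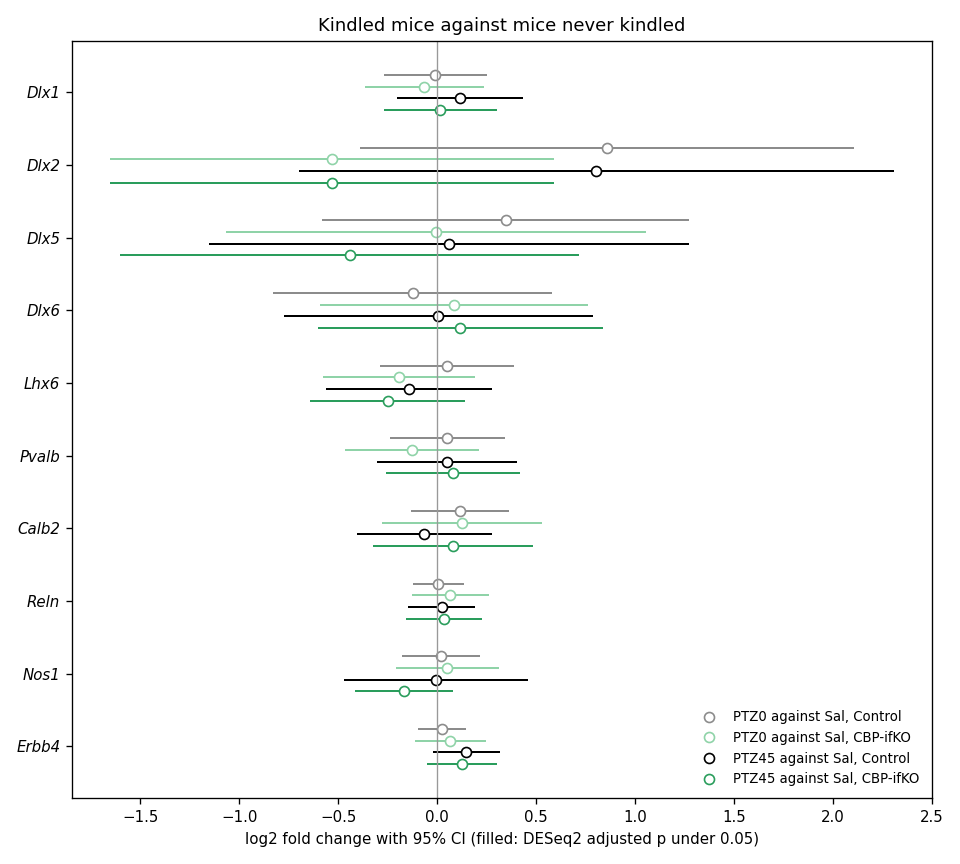
Log2 difference of each member for PTZ0 against Sal and PTZ45 against Sal in each genotype, with 95% intervals from DESeq2. No point passed an adjusted p of 0.05. The points of the abundant members in PTZ45 run from -0.14 (Lhx6) to 0.15 (Erbb4) in Control and from -0.25 (Lhx6) to 0.12 (Erbb4) in CBP-ifKO, and the intervals of Dlx2, Dlx5 and Dlx6 are the widest.

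Whether the response to PTZ45 differed between genotypes was tested as an interaction over the 11 Sal and PTZ45 libraries. DESeq2 called none of the 10 members, against 0.329% of all genes, and none had an unadjusted p under 0.05, while edgeR called none and gave 1, Dlx2, an unadjusted p under 0.05. The difference between the responses was 0.03 for Pvalb (interval -0.45 to 0.51), 0.14 for Calb2 (interval -0.40 to 0.68), -0.17 for Nos1 (interval -0.56 to 0.23), 0.01 for Reln (interval -0.23 to 0.26) and -0.02 for Erbb4 (interval -0.25 to 0.20). These intervals are wider than those of the genotype difference itself. For Dlx2 the difference was -1.34 (interval -2.98 to 0.31). This value uses the same low Control Sal libraries, at 4.92 to 7.79 normalized counts.

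Other genes of the interneuron programme were read in lists by role. Of 48 such genes, 44 had an adjusted p over all treatments, and 12 of them were lower in CBP-ifKO and 1 higher, against 11.5% and 7.76% of all genes. Their median log2 difference was -0.10 and 35 lay below 0. Among genes for GABA synthesis and transport, 1 of 4 was called, Gad1 (GAD67), from 3262 to 2978 normalized counts (-0.14, adjusted p = 1.11e-05) with no overlap between genotypes. Gad2 (GAD65) stood at 0.00 (interval -0.08 to 0.08) and was not called, and the difference between the enzymes was not tested. The vesicular GABA transporter Slc32a1 stood at -0.10 (interval -0.26 to 0.06, adjusted p = 0.447).

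**Figure D5:**
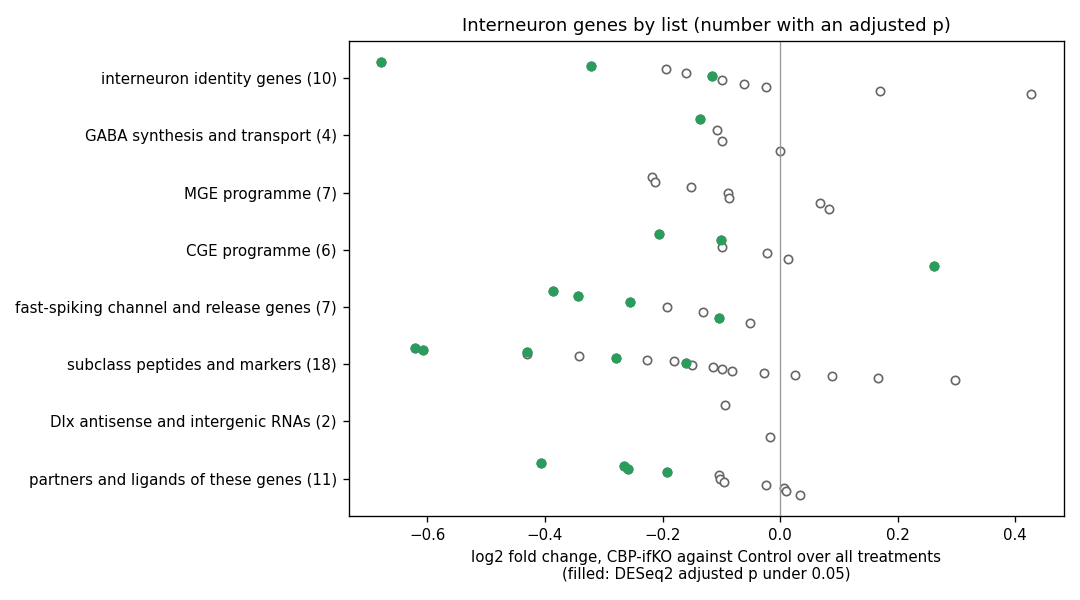
Log2 difference between CBP-ifKO and Control over all treatments for the members, in the top row, and below them the other interneuron genes and the partners and ligands, by list. Each point is 1 gene with an adjusted p, filled where it was under 0.05. MGE and CGE are the medial and caudal ganglionic eminences. The lowest filled point is the member Calb2 (-0.68), followed by Cck (-0.62) and Lamp5 (-0.61), and Prox1 (0.26) is the only filled point above 0.

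Of 7 genes for the channels and release machinery of fast-spiking cells, 4 were lower, against 11.5% of all genes tested. These were Tac1, the substance P precursor, at -0.39 and Syt2, a calcium sensor of fast release, at -0.34. The others were Kcns3 at -0.26 and Kcnc2, a voltage-gated potassium channel subunit, at -0.10. The call of Syt2 was lost in 2 of 25 alternatives and that of Tac1 in 3, but those of Kcns3 and Kcnc2 in 17 and 16. None of 7 genes of the medial eminence programme with an adjusted p was called by DESeq2 or edgeR (2 at an unadjusted p under 0.05 in each). Of 6 genes of the caudal programme, Nr2f1 was lower at -0.21 and Adarb2 at -0.10, a call lost in 19 of 25 alternatives, and Prox1 was higher, a gene that dentate granule cells also express strongly.

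Of 18 genes for peptides and subclass markers, 5 were lower and none higher, against 11.5% and 7.76% of all genes tested. Cck, the cholecystokinin precursor, averaged 1776 in Control and 1151 in CBP-ifKO without overlap (-0.62, adjusted p = 3.69e-11), Lamp5 averaged 213 and 140 (-0.61), and Crhbp, which binds corticotropin-releasing hormone, stood at -0.43. Sst, somatostatin, averaged 954 and 784 (-0.28, adjusted p = 0.000157), and Nxph1 stood at -0.16. Cck and Lamp5 are also made by excitatory neurons. Vip stood at -0.18 (adjusted p = 0.0879) and Npy at 0.09 (adjusted p = 0.619). Within treatments, Cck was called in Sal (-0.57) and PTZ0 (-0.69), Lamp5 in PTZ0 (-0.67) and PTZ45 (-0.77), and Crhbp (-0.48), Syt2 (-0.42) and Prox1 (0.34) in PTZ0. With edgeR the calls of Cck in Sal and Syt2 in PTZ0 were lost, and Cck was also called in PTZ45. With lane as a term no gene of the interneuron or partner lists kept its call over all treatments, although Cck stood at -0.47 and Ldb2 at -0.38 there, and in lane 4 alone Cck (-0.47, adjusted p = 0.0352) and Ldb2 (-0.57, adjusted p = 0.00644) kept theirs. In the 12 libraries low in choroid plexus genes the calls of Adarb2, Kcnc2, Kcns3, Tac1 and Ldb1 were lost and those of the other genes of these lists remained.

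Of 11 partners and ligands of the members, 4 were lower and none higher, against 11.5% and 7.76% of all genes tested. Nrg1, a ligand of Erbb4, stood at -0.26, a sign that turned with lane as a term (0.071), while Nrg2 and Nrg3 stood at 0.01 and 0.03 and were not called. Dlg4 (PSD-95), the scaffold that holds Nos1 and Erbb4 at synapses, stood at -0.27, and was called in PTZ0 (-0.26) and PTZ45 (-0.33) too, the latter not with edgeR. Ldb1 and Ldb2, cofactors of LIM homeodomain factors such as Lhx6, stood at -0.19 and -0.41, and Ldb2 was also called in PTZ0 (-0.43) and PTZ45 (-0.47). The reelin receptors and their adaptor were not called, with Vldlr at -0.02, Lrp8 at -0.10 and Dab1 at -0.10, nor was the nitric oxide receptor, with Gucy1a1 at 0.01 and Gucy1b1 at -0.10. No gene of the interneuron or partner lists was called in any comparison between treatments or in the interaction, by DESeq2 or edgeR.

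The members did not vary as a block. Over the 21 pairs of the 7 more abundant members, Pearson's r of log2(normalized count + 1) across the 17 libraries, which share a scaling, ran from -0.34 to 0.75 with a median of 0.21. The highest r was that of Reln and Calb2, at 0.75 and still 0.59 after group means were subtracted. Pvalb and Nos1 ran opposite to each other within groups, at -0.31 before and -0.81 after subtraction. Among the 13040 other genes compared, those most like each member included Slit3 for Nos1 (r = 0.94), Wnt4, Krt77 and Plcxd3 for Calb2 (0.92 each), Acvr2a, Fgd4 and Taok1 for Erbb4 (0.90, 0.90 and 0.89), Plxnc1, Grk3 and Tpbg for Reln (0.88, 0.88 and 0.83), Cab39, Zmat4 and Scarb2 for Pvalb (0.87, 0.86 and 0.85), Rgma, Nfix and Gm1043 for Lhx6 (0.86, 0.81 and 0.80) and Stk4, Map4k4 and Ube2ql1 for Dlx1 (0.83, 0.80 and 0.79). After subtraction of group means, r of Nos1 with Slit3 was 0.95, whereas that of Calb2 with Wnt4, Krt77 and Plcxd3 was 0.64, 0.67 and 0.67. These correlations are descriptions of 17 libraries in 6 groups.

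Some members share exon sequence with genes on the opposite strand, and the use of strand in counting is not stated, so reads from these stretches cannot be assigned: 335 bases of Dlx1 with Dlx1as, 268 of Nos1 with Gm26995, 246 of Reln with Gm10475 and 104 of Dlx6 with Dlx6os2. The GC content of members' exons ran from 41.1% in Erbb4 to 58.7% in Dlx2, around a median of 49.0% for genes whose mean level reached 50 normalized counts.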

How the data were processed

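The authors deposited 1 table of raw counts, in the unit of reads per gene, from single-end 50-base hippocampal RNA-seq. Per the methods, reads were checked with FastQC 0.11.8, trimmed with Trim Galore 0.6.4, aligned to mm10 with STAR 2.6.1 and counted over Ensembl exons with Rsubread. Of 18 count columns, 1 matched no sample and was not used. The members and gene lists were chosen with earlier results of these data known.

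Counts of the 39260 genes with at least 1 count were tested with DESeq2 1.42.0 (R 4.3.3), two-sided Wald tests with Benjamini-Hochberg adjustment and a threshold of 0.05. Each pair of groups had its own fit. The genotype over all treatments was tested beside treatment on 17 libraries and the interaction on 11. Levels are counts divided by DESeq2 size factors. Alternatives were edgeR 4.0.16 (quasi-likelihood, TMM), TMM size factors, a filter of 10 counts in 2 libraries, a loess GC correction, the replicate number as a block, 1 fit of all libraries, lane as a term and each library left out. Lane 4 alone and the libraries low in choroid plexus genes (summed level under 10000) were added after seeing the data. Symbols came from GENCODE M21, which held 99.4% of identifiers. Genes named were all members, every gene of the interneuron and partner lists called in any comparison, Gad1, Gad2, Slc32a1, Sst, Vip and Npy, markers called over all treatments or at a mean under 20, and the 3 genes most correlated with each member with a mean of at least 50. A few genes that meet this rule are not reported here. The fits were tested on simulated counts. Depth, 5831992 to 18735643 counts, limits the scarce Dlx genes most.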

Additional observations from a re-analysis of the deposited data

Results flagged for a closer look

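A single library stood apart from the rest of its genotype for 2 members. Among 9 CBP-ifKO libraries, Lhx6 was highest in CBP-ifKO Sal replicate 2, at 178 normalized counts, where the others lay at 112 to 145. Reln was lowest in CBP-ifKO Sal replicate 3, at 1646, where the others lay at 1898 to 2114. The gap to the next library was large relative to the range of the group in both cases, which chance gives for about 1 in 20 groups.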

How the results depend on the processing

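The number of members lower over all treatments, 3, was 0 with lane as a term, where 131 of 16404 genes were called against 3606 of 18682, and 0 in lane 4 alone (528 genes). It was 2 in the 12 libraries low in choroid plexus genes (1870 genes) and ranged from 2 to 3 when a library was left out. Calls of 1 member in Sal, 1 in PTZ0 and 0 in PTZ45 ranged from 0 to 1, 1 to 2 and 0 to 1 without a library, and edgeR called 0 in Sal. Over all treatments Reln lost its call in 13 of 25 alternatives, and Calb2 and Nos1 in 2 each. Of 1469 values of members under an alternative, 22 lost a call, 4 gained one, 133 had the other sign without a call in either fit and 0 turned the direction of a call. Among other genes, the sign turned for Nrg1 (0.071) with lane as a term and for Pou3f1 (0.15) and Olig1 (0.12) in lane 4 alone, where none was called. The cause was not tested.

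Replicate numbers gave no sign of pairing: over 40 pairs of libraries with the same number the correlation of deviations ran from -0.52 to 0.53 with a median of -0.06, and 7 of 17 libraries correlated best with their own number. With the replicate block, 2 members were called over all treatments (Reln at an adjusted p of 0.0579), of 3223 genes.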
